A study of Mus musculus with 24 samples.

Results

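The natriuretic peptide system of the left ventricle was examined through 8 genes, taken by symbol from the 14912 genes of the deposited table. They were the peptide genes Nppa and Nppb, the receptor genes Npr1, Npr2 and Npr3, and the peptidase genes Corin, Furin and Mme, and all 8 were present and passed the filter of a mean of at least 0.1 FPKM, a unit that scales fragments by transcript length and by sequencing depth. RNA came from left ventricles of male wild-type (WT) C57BL/6J mice, in which a subcutaneous osmotic mini-pump had delivered either ANG II at 1500 ng/kg/min or saline for 7 days. The 12 samples after ANG II form the hypertensive-LVH group (LVH, left ventricular hypertrophy) and the 12 after saline the control group. These group names were given to larger groups, of which the present samples are a part. The study searched for immune genes linked to hypertensive LVH, and the same contrast is used here for the natriuretic peptide genes. The ages of the mice were not given in the sources used here, and no cell type was separated, so that all cells of the ventricle contribute to each value.

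Natriuretic peptides are hormones that heart muscle releases when its walls are stretched. Nppa encodes the precursor of atrial natriuretic peptide and Nppb that of brain natriuretic peptide, and both rise in the stressed ventricle, which is why they serve as markers of hypertrophy and heart failure. The precursors are cut into active hormone by the proteases corin and furin. The hormones act on NPR1, a receptor with guanylyl cyclase activity that makes cGMP, and thereby lower blood pressure and promote salt excretion. NPR2 is the related receptor for C-type natriuretic peptide, NPR3 takes the peptides up for clearance, and neprilysin, the product of Mme, degrades them.

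Both peptide genes lie side by side on mouse chromosome 4. In the GENCODE vM21 annotation of the GRCm38 genome, Nppb occupies chr4:147985788-147987205 and Nppa chr4:148000722-148002079, both on the plus strand with 3 exons and with 13516 bases between them. An antisense gene, Gm13054, overlaps Nppa and was not in the table, and since no source used here states that strand was kept, reads of the 2 genes cannot be told apart. The sequences shown are upstream of the RefSeq first bases of these genes (RefSeq, GRCm38.p6), because the 2 neighbours are the members with the largest changes and hold different sets of the searched motifs. For Nppa all 250 bases before the start are given, at chr4:148000472-148000721, and for Nppb a stretch of 27 bases at chr4:147985795-147985821, whose last base is at position -79 from the RefSeq start and which lies inside the first exon of the longer GENCODE transcript. Capitals mark matches on either strand to GATAA, which GATA factors bind, to CATTCC, the M-CAT element, to AAGTG, the NKE element of Nkx factors, to the T-box half-site AGGTGTGA and to TATAAA, the letters of the core promoter box.
Nppa: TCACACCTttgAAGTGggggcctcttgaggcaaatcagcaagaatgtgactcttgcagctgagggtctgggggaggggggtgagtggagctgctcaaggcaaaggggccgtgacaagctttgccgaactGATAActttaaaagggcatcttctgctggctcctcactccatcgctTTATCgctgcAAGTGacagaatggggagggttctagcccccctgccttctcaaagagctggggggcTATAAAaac
Nppb: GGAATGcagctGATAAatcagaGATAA
Within 250 bases of the start, GATAA had 2 matches in Nppa and 2 in Nppb, and 22.6% of 32851 mouse promoter windows of that length held at least 1. AAGTG had 2 matches in Nppa and 0 in Nppb, against 40.7% of windows. The T-box half-site was matched 1 time in Nppa and 0 times in Nppb, against 1.12% of windows, and CATTCC 0 times in Nppa and 1 time in Nppb, against 12.6%. TATAAA had 1 match in each, against 12.4%. Neither window held the AP-1 letters TGANTCA (6.75% of windows) or a CArG box (1.47%). A match is a description of letters and not evidence of a bound site.

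Of the deposited FPKM, 2741 values (0.766%) were negative. Ties between values were counted without 278 genes whose values were whole hundredths in every sample. Among the remaining genes they were shared only within 4 sets (samples 1 to 3, 4 to 6, 7 to 9 and 10 to 12 of each group). An adjustment of the values by set, with the group taken into account, was inferred from this pattern and is not stated in the sources used here. All values of a sample summed to 460715 to 515185 after ANG II and to 482319 to 567727 after saline, but the numbers of reads are unknown. Where the tests used a log2 scale, negative values were set to 0 and 1 was added. A gene was called when its adjusted p from limma, over the 14026 genes with a mean of at least 0.1 FPKM, was under 0.05. Ventricular myocyte markers were the most abundant of the marker lists, summing to 34810 to 50922 FPKM after ANG II and to 45925 to 59245 FPKM after saline. The protocol text of the labels names another kind of cell for the RNA extraction, which these levels do not match.

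Of the 8 genes, 2 were called, Nppa and Furin, both higher in the hypertensive-LVH group. That is 25% of the members, against 33.5% of all genes tested, 20.9% higher and 12.6% lower. With an absolute log2 fold change above 0.5 as a further condition, which defines a differentially expressed gene (DEG), Nppa alone remained, while 4.52% of all genes tested were DEGs with a higher level. The median log2 fold change was 0.10 over the members and 0.05 over all genes. In these bulk samples, fewer cells of a type and less RNA per cell cannot be told apart.

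**Figure D1:**
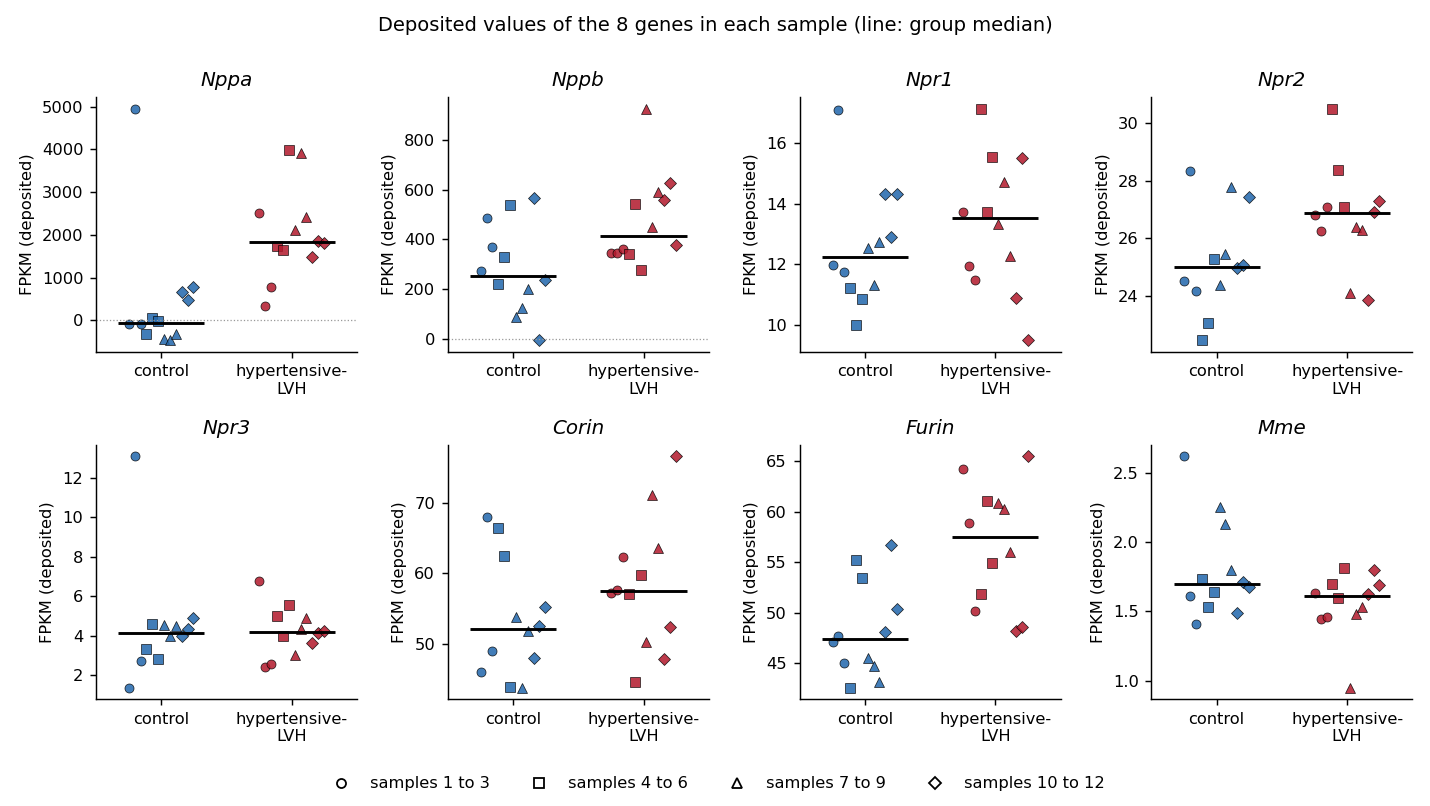
Deposited FPKM of the 8 genes, with 1 point per sample, the shape of the point giving the set of samples and the line the group median; the vertical axes do not all start at 0. For Nppa, all hypertensive-LVH samples lie above the control median, and control sample 2, at 4953 FPKM, lies above them all.

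Nppa was the most abundant member in the hypertensive-LVH group. Its deposited values ran from -462 to 4953 FPKM in the controls (median -51.1) and from 340.4 to 3998 FPKM after ANG II (median 1827). All 12 hypertensive-LVH samples exceeded the control median and 8 of the 12 controls lay below the lowest of them, but the highest sample of all was a control, sample 2, so the groups overlapped. The means were 2050.3 ± 1079.9 FPKM (SD, n = 12) and 432 ± 1482 FPKM (SD, n = 12), and the log2 fold change was 6.96 ± 1.35 (standard error, limma, adjusted p = 4.13e-04). Since 7 of the 12 control values were negative and entered as 0, the size of this fold change depends on the adjustment.

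Under the inferred adjustment, the spacing of the deposited values allowed the differences between samples of 1 set to be rebuilt as they were before the adjustment. The level of a set cannot be rebuilt in this way, so these values are given in FPKM above the lowest sample of the set, and no fold can be formed from them. For Nppa 2 solutions lay within the tolerance, and the one used had a misfit 20.6 times smaller than the other. On this scale, control sample 2 stood at 8888 FPKM for Nppa and the other 11 controls between 0 and 302, with a median of 12.2. The hypertensive-LVH samples ran from 104 to 3917 FPKM, with a median of 1838. Each of the 12 lay above every control of its own set other than control sample 2. The mean difference between the groups was -1327 FPKM in the set of samples 1 to 3, and in the later sets it was 2309.9, 2466 and 1011 FPKM in turn. Over all 24 samples the mean of these differences was 1115 FPKM, which was not called by an exact permutation of labels within the sets (adjusted p = 0.331 over 13536 genes, of which 27.7% were called). The other solution for Nppa gave -168, 2088, 4606 and 1140 FPKM in the 4 sets, a mean of 1917 FPKM, with control sample 2 again at 8888 FPKM, and was not tested. The result of the solution used rests on control sample 2. Without it, a choice made after the data were seen, the difference in samples 1 to 3 was 1634 FPKM and the mean over the sets 1855 FPKM (exact permutation test, adjusted p = 0.00175).

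**Figure D2:**
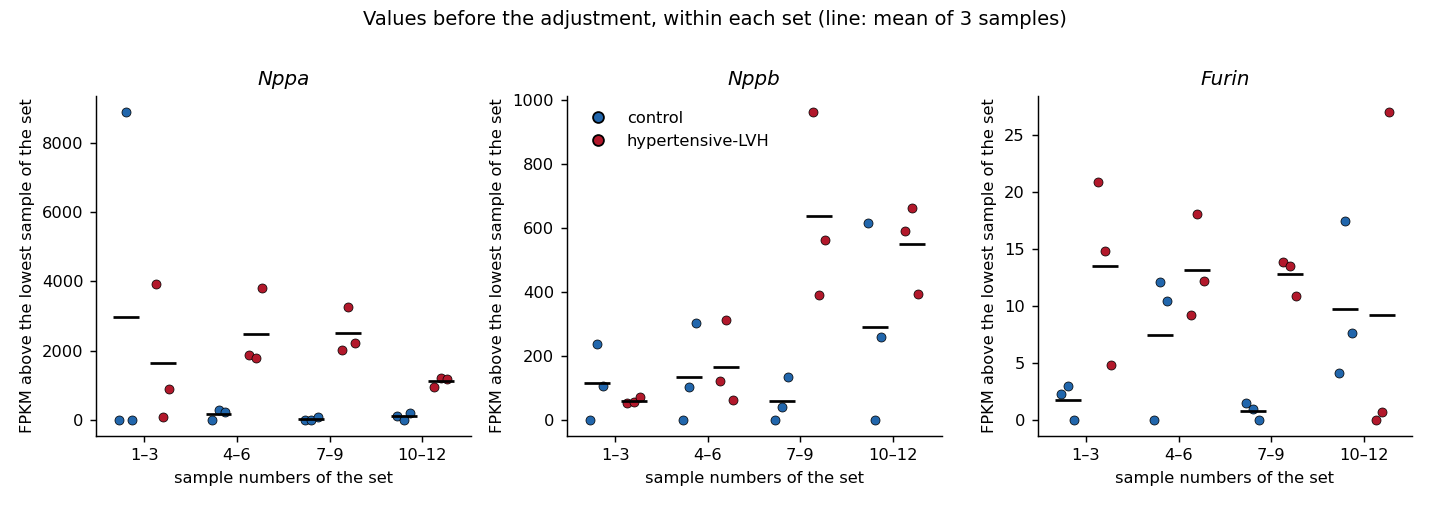
Values of Nppa, Nppb and Furin before the adjustment, in FPKM above the lowest sample of each set, by set; points are samples and lines are means of 3 samples. For Nppa, the hypertensive-LVH samples lie above the controls in samples 4 to 12, and in samples 1 to 3 a single control at 8888 FPKM raises the control mean.

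Nppb was higher in the hypertensive-LVH group but did not pass the threshold. Control values ran from -3.57 to 567 FPKM with a median of 255, and hypertensive-LVH values from 278 to 925 FPKM with a median of 414. The hypertensive-LVH samples all lay above the control median, 3 of them lay above every control, and 7 controls lay below the lowest of them. The means were 478 ± 182 and 287 ± 179.6 FPKM (SD, n = 12 each), with a log2 fold change of 1.41 ± 0.68 (standard error, limma, adjusted p = 0.110). A single library, control sample 11, held the negative value, and without it the log2 fold change was 0.73 and the adjusted p 0.0400 (limma). A Wilcoxon rank-sum test on the deposited values also called Nppb (adjusted p = 0.0430). The call of this gene thus differed between tests.

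Before the adjustment the difference of Nppb lay mostly in samples 7 to 12. The group difference in the 4 sets was, in order, -53.5, 31.3, 580.1 and 258 FPKM. In samples 7 to 9 all 3 hypertensive-LVH samples exceeded all 3 controls, by values of 392 to 963 FPKM above the lowest sample against 0 to 135. In samples 10 to 12 a control stood at 617 FPKM above the lowest, between the hypertensive-LVH samples at 591 and 664. The mean over the sets was 204 FPKM (exact permutation within the sets, adjusted p = 0.0825), and 219 FPKM without control sample 2 (adjusted p = 0.0439). Control sample 2 was the highest of its set for Nppb too, at 238 FPKM above the lowest. Whether the change of Nppb differed from that of Nppa was not tested.

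The signalling receptor genes Npr1 and Npr2 did not pass the threshold. Npr1 ran from 10.0 to 17.1 FPKM in the controls (median 12.3) and from 9.50 to 17.2 FPKM after ANG II (median 13.5). The groups covered almost the same range, and the log2 fold change was 0.07 ± 0.08 (standard error, limma, adjusted p = 0.525). Its sign turned without samples 4 to 6 (-0.07), the set in which all 3 hypertensive-LVH samples were above all 3 controls, by a mean of 5.53 FPKM before the adjustment. In samples 10 to 12 the difference before the adjustment was -2.31 FPKM. Npr2 was the most abundant of the receptor genes. It lay between 22.5 and 28.3 FPKM in the controls (median 25.0) and between 23.9 and 30.5 FPKM after ANG II (median 26.9). Although 10 of the 12 hypertensive-LVH samples were above the control median, the log2 fold change of 0.08 ± 0.04 was not called (limma, adjusted p = 0.128). Before the adjustment its difference was 0.843, 5.62, 0.233 and 0.280 FPKM in the 4 sets, and a call was reached when control sample 2 was left out (mean 2.12 FPKM, exact permutation, adjusted p = 0.0317).

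Npr3, the clearance receptor gene, showed no difference in level that held a direction. Controls ran from 1.36 to 13.1 FPKM with a median of 4.15, and hypertensive-LVH samples from 2.39 to 6.75 FPKM with a median of 4.17. The highest value again belonged to control sample 2, and 6 of the 12 hypertensive-LVH samples lay above the control median. The log2 fold change was 0.01 ± 0.19 (standard error, limma, adjusted p = 0.969), and it turned to -0.09 with quantile normalization and to -0.03 with median-ratio scaling. Before the adjustment, control sample 2 stood 21.5 FPKM and hypertensive-LVH sample 1 stood 10.5 FPKM above the lowest of their set, while the other 11 controls stayed within 2.43 FPKM.

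Among the proteases that cut the precursors, Furin rose and Corin was not called. Furin, a protease of the secretory pathway found in most cells, ran from 42.6 to 56.7 FPKM in the controls, with a median of 47.4, and from 48.1 to 65.5 FPKM after ANG II, with a median of 57.5. All 12 hypertensive-LVH samples lay above the control median, 6 lay above every control, and 8 controls lay below the lowest hypertensive-LVH sample. The means were 56.7 ± 6.02 and 48.3 ± 4.68 FPKM (SD, n = 12 each), with a log2 fold change of 0.23 ± 0.06 (standard error, limma, adjusted p = 0.00429). Furin was also the 1 member whose deposited mean was higher in all 4 sets, as it was for 21.9% of all genes tested.

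The call of Furin depended on samples 7 to 9, without which the log2 fold change was 0.17 (limma, adjusted p = 0.0788). Before the adjustment its difference in the 4 sets was, in order, 11.7, 5.65, 12.0 and -0.493 FPKM. In samples 10 to 12 the hypertensive-LVH values were split, with 2 samples within 0.720 FPKM of the lowest and 1 at 27.1 FPKM above it. The mean over the sets was 7.21 FPKM (exact permutation within the sets, unadjusted p = 0.0255, adjusted p = 0.0762). Corin, a protease on the surface of heart muscle cells, ran from 43.8 to 68.0 FPKM in the controls, with a median of 52.1, and from 44.6 to 76.6 FPKM after ANG II, with a median of 57.4. The groups overlapped over most of this range, with a log2 fold change of 0.12 ± 0.08 (standard error, limma, adjusted p = 0.260). The difference in FPKM before the adjustment was positive in 3 sets (5.19, 9.75 and 8.13) and negative in samples 4 to 6 (-4.63).

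Mme, which encodes the peptide-degrading enzyme neprilysin, was the least abundant member and the only one with a log2 fold change below 0. It ran from 1.41 to 2.62 FPKM in the controls, with a median of 1.70, and from 0.950 to 1.81 FPKM after ANG II, with a median of 1.61. The 3 highest samples were controls and the lowest was hypertensive-LVH sample 7, while 9 of the 12 hypertensive-LVH samples lay below the control median. The log2 fold change of -0.13 ± 0.07 was not called (limma, adjusted p = 0.134), but it was -0.24 with quantile normalization (adjusted p = 0.00818) and -0.16 with median-ratio scaling (adjusted p = 0.0482). Before the adjustment the difference was negative in each set, at -0.317, -0.0200, -0.730 and -0.0367 FPKM (exact permutation within the sets, adjusted p = 0.0878), whereas the deposited means of samples 4 to 6 and 10 to 12 differed by 0.0665 and 0.0770 FPKM in the opposite direction.

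**Figure D3:**
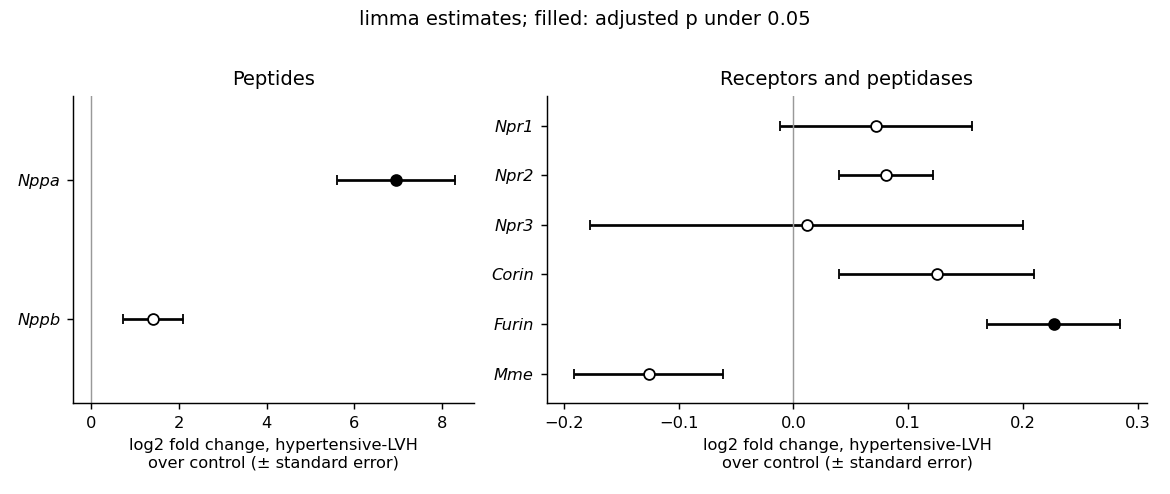
Log2 fold change (hypertensive-LVH over control) of the 8 genes from limma, with standard errors, on separate axes for the peptide genes and the others; filled points have an adjusted p under 0.05. Nppa at 6.96 and Furin at 0.23 are filled, and Mme is the only estimate below 0.

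In the deposited values, a difference in the size of the ANG II effect between the 4 sets was not called for any member. The inferred adjustment alters the differences within the sets, as for Nppa in samples 1 to 3 (-1327 FPKM before it, -378 FPKM as deposited). Whether the effects before it differed between the sets was not tested. The group by set interaction had an adjusted p of 0.0951 for Npr1, 0.101 for Nppa and at least 0.217 for the others (limma, 0 of 8 called, 2 at an unadjusted p under 0.05, against 7.49% of all genes called). By the exact permutation within the sets on the values before the adjustment, 0 of 8 members were called, against 27.7% of all genes, and 4 (Nppb, Npr2, Furin and Mme) had an unadjusted p under 0.05.

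Markers of atrial myocytes were followed because atrial muscle makes far more Nppa than the ventricle. Of 6 such genes, 5 were in the table, Bmp10 was not, and 0 of the 5 were called (limma, adjusted p 0.199 to 0.618, 0 at an unadjusted p under 0.05). All 5 log2 fold changes lay above 0, from 0.85 to 1.09, with negative deposited values entered as 0. Before the adjustment, the mean difference over the sets, control sample 2 included, was -76.0 FPKM for Myl7 and -30.2 for Myl4. It was -28.2 for Sln, -8.55 for Mybphl and 7.37 for Dkk3. For Myl4 the closer of 2 solutions was used. Summed, the deposited values of the 5 genes had a median of 419 FPKM (-177 to 2497) after ANG II and of 321 FPKM (-172 to 3389) after saline. Before the adjustment, Myl7, the atrial myosin light chain gene, stood 2625 FPKM above the lowest of its set in control sample 2, 461 in hypertensive-LVH sample 1, 216 in sample 4 and 1097 in sample 6 of that group. The other 11 controls lay within 90.1 FPKM of the lowest. Control sample 2 was also the highest of its set before the adjustment for Myl4 (2321 FPKM), Sln (842), Mybphl (308), Dkk3 (106) and Gja5 (24.7), the last a gene of the atrial and conduction tissue. Among the deposited values of all samples, the sample with the highest Nppa was also the highest in Myl7, Myl4, Sln, Mybphl and Gja5. Dkk3 was highest there in hypertensive-LVH sample 6 (76.4 FPKM, against 69.8 in control sample 2). The high Npr3 values were in the 2 samples of samples 1 to 3 with raised Myl7. Hypertensive-LVH samples 4 and 6, also with raised Myl7, stood only 1.47 and 1.90 FPKM above the lowest of their set for Npr3, though highest in it. In samples 7 to 12, a selection made after the data were seen, Nppa differed by 1738 FPKM (exact permutation within the sets, p = 0.005, the smallest that these samples allow, adjusted p = 0.0416) and Nppb by 419 FPKM (p = 0.015, adjusted p = 0.0759). Myl7 varied within 32.8 FPKM there before the adjustment, but its level in these sets cannot be rebuilt. Its group difference before the adjustment was 9.63 FPKM in samples 7 to 9 and -0.660 FPKM in samples 10 to 12, and the groups overlapped in both sets. The deposited mean of Myl7 was 190 against 130 FPKM in samples 7 to 9 and 172 against 151 FPKM in samples 10 to 12. There each hypertensive-LVH sample lay above each control of its set, a separation absent before the adjustment. The part of atrial tissue in the values of Nppa, Nppb and Npr3 was not tested.

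**Figure D4:**
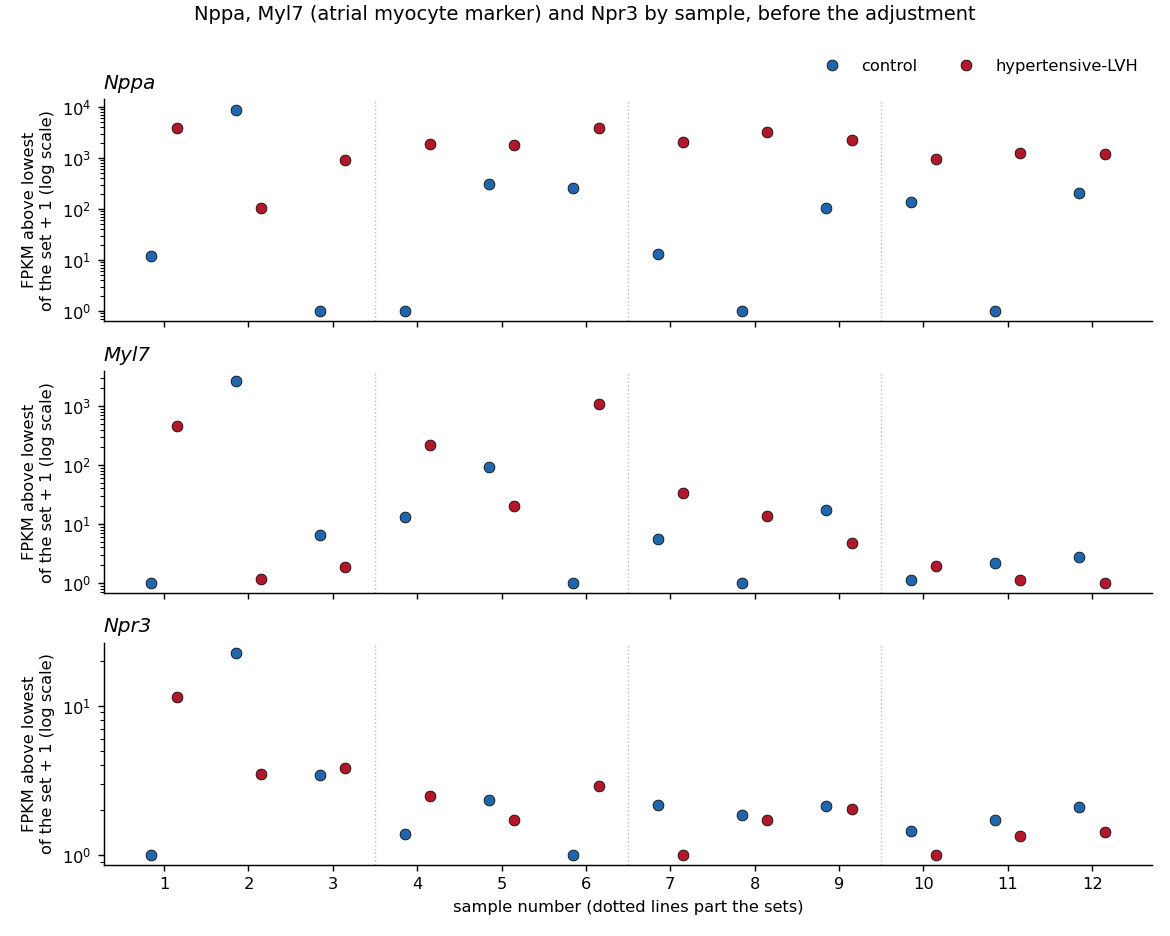
Nppa, the atrial myocyte marker Myl7 and Npr3 by sample number before the adjustment, in FPKM above the lowest sample of the set plus 1, on log axes. Control sample 2 is the highest sample of its set for all 3 genes, and heights cannot be compared between sets, since the level of a set is unknown.

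Markers of other cell types also differed between the groups, and their counts stand beside 20.9% of all genes called higher and 12.6% called lower. Among ventricular myocyte markers, 5 of 9 were called lower and 0 higher. Macrophage markers were called higher in 6 of 6 genes, summing to 51.5 to 143 FPKM after ANG II against 44.3 to 78.0 FPKM after saline. Fibroblast markers were called higher in 3 of 6 genes and red blood cell markers in 5 of 5. The endothelial and the smooth muscle lists each had 1 gene called higher and 1 lower of 6, and the neutrophil list 1 higher of 5. Their part in the change of Furin, which is active in many cell types, was not tested.

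FPKM are per transcript length, and the deposited levels of the members were ordered within each group. Neighbours in this order were compared by an exact test of sign flips over the 12 samples, with p-values adjusted over 14 pairs. In the control group the mean of Nppa (432 FPKM, but 21.2 FPKM without control sample 2) was followed by Nppb (287), Corin (53.4), Furin (48.3), Npr2 (25.3), Npr1 (12.6), Npr3 (4.49) and Mme (1.80). Nppa and Nppb did not differ beyond their spread there (adjusted p = 0.957, Nppa higher in 4 of 12 samples), nor did Corin and Furin (adjusted p = 0.111, 7 of 12), and each other neighbour pair did (adjusted p up to 0.00186). Without control sample 2 the deposited control mean of Nppa lay below those of Nppb, Corin, Furin and Npr2. Since 7 of its 12 control values were negative and the level of a set before the adjustment is unknown, the place of Nppa among the controls cannot be read from these values. In the hypertensive-LVH group the order of the means was also Nppa, Nppb, Corin, Furin, Npr2, Npr1, Npr3 and Mme, and Nppa exceeded Nppb in 11 of 12 samples (adjusted p = 0.00152), at 2050.3 against 478 FPKM. Corin (58.4 FPKM) and Furin (56.7 FPKM) again did not separate (adjusted p = 0.587).

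Relations between the peptide genes and the other members were computed within each group after the mean of each set was removed, 22 in all. None passed the threshold after adjustment (exact permutation within the sets, 4 with r and 5 with rho at an unadjusted p under 0.05, lowest adjusted p 0.207 for r and 0.110 for rho). The strongest in the hypertensive-LVH group linked higher Nppb with lower Corin, with r = -0.902 (exact permutation, p = 0.0139, adjusted p = 0.207) and rho = -0.923 (p = 0.0177, adjusted p = 0.130), and r = -0.859 without the 2 farthest samples. Nppa and Npr3 rose and fell together in the same group, with r = 0.848 (exact permutation, p = 0.0208, adjusted p = 0.207), rho = 0.713 (p = 0.0463, adjusted p = 0.179) and r = 0.570 without the 2 farthest samples. In the control group the same pair had r = 0.942 (exact permutation, p = 0.0556, adjusted p = 0.207), rho = 0.841 (p = 0.0556, adjusted p = 0.179) and r = 0.914 without the 2 farthest samples. However, 7 of the 12 control values of Nppa were negative and entered as 0. These control coefficients therefore rest on few values above 0, also without the 2 farthest samples. Nppa and Nppb themselves had r = -0.377 and rho = -0.462 in the hypertensive-LVH group (exact permutation, p = 0.0972 and 0.111, adjusted p = 0.251 and 0.306), and r = -0.713 without the 2 farthest samples. In the control group, with the same limit of values entered as 0, the sign was the opposite. There r was 0.102 and rho 0.392 (exact permutation, adjusted p = 0.313 and 0.370), and r was 0.070 without the 2 farthest samples.

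The genes whose pattern over the 24 samples was most like that of each member were ranked by Spearman's rho among 11458 genes with a mean of at least 1 FPKM. For Nppa they were Shisa4 (rho = 0.894), Hsp90b1, a chaperone of the endoplasmic reticulum (0.892), Ncam1, a cell adhesion gene (0.889), and Cd44, the hyaluronan receptor gene (0.887). For Nppb they were Tnfrsf12a, the receptor gene for the cytokine TWEAK (0.897), Flnc, which encodes filamin C (0.843), Ckap4 (0.815), Ankrd23 (0.813) and 2310057M21Rik (0.811). The lists of the 2 peptide genes held no gene in common. With the group means removed, Tnfrsf12a kept a rho of 0.843 with Nppb and Shisa4 one of 0.749 with Nppa. The samples share the 2 groups and the 4 sets, so these coefficients are a description and carry no test.

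Among the receptor genes, Npr1 was most like Nynrin (0.919), Wls (0.911) and Cpne1 (0.901), Npr2 most like Stim1 (0.888), Dtx3 (0.863) and Iffo1 (0.842), and Npr3 most like Plagl1 (0.863), Foxc1 (0.829) and Stxbp6 (0.813). Corin was most like Homer1 (0.911), Lztfl1 (0.864) and Tecrl (0.859). Furin was most like S1pr1, a lipid receptor gene of the endothelium (0.814), Cdkn1a, a cell cycle inhibitor gene (0.804), and Ada, which encodes adenosine deaminase (0.793). Mme was most like Prrg1 (0.797), Jarid2 (0.791) and Magi3 (0.773).

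A list of 45 other symbols of natriuretic peptide signalling held older and newer symbols of some genes, such as Mrvi1 and Irag1. Of these symbols 39 were tested, and 3 were called higher and 4 lower in the hypertensive-LVH group. That is 17.9% of the list, against 33.5% of all genes tested, and the median log2 fold change was 0.08 against 0.05. None had an absolute log2 fold change above 0.5. Nppc, which encodes the third peptide of the family, ran from -0.0283 to 3.16 FPKM after ANG II and from -0.657 to 0.678 FPKM after saline (log2 fold change 0.42 ± 0.18, limma, adjusted p = 0.0802). Of 7 peptidase genes, Fap rose (log2 fold change 0.34, adjusted p = 0.00582) and Pcsk6, a relative of furin that also activates corin, fell (-0.24, adjusted p = 0.0111).

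Downstream of the receptors, 17 genes of cGMP signalling were tested, and Vasp and Ppp1r12a rose while Pde2a fell. Vasp, a substrate of the cGMP-dependent kinase, had a mean of 35.0 against 28.1 FPKM (log2 fold change 0.30, limma, adjusted p = 0.0104), and Ppp1r12a, the targeting subunit of myosin phosphatase, 20.0 against 17.3 FPKM (0.21, adjusted p = 0.0136). Pde2a, a phosphodiesterase that cGMP itself stimulates, had 20.9 against 25.2 FPKM (-0.26, adjusted p = 0.00732). The kinase gene Prkg1 was not called (4.06 against 3.55 FPKM, adjusted p = 0.0759), nor was Pde5a (1.38 against 1.15 FPKM, adjusted p = 0.175). Of 14 transcription factor genes that act on the peptide promoters or in heart muscle, 2 fell, Nkx2-5 (63.4 against 71.9 FPKM, log2 fold change -0.18) and Mef2d (67.6 against 73.6 FPKM, -0.12), both with an adjusted p of 0.0398 from limma. The largest increase in this list, that of Tbx2, was not called (0.20, adjusted p = 0.140). Gata4 (52.2 against 58.3 FPKM, adjusted p = 0.107) and Tbx5 (17.5 against 16.8 FPKM, adjusted p = 0.760) were not called. Without samples 4 to 6, 4 of the 39 genes were called, of which 2 were among the 7, and the share of all genes called fell to 20.0%.

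**Figure D5:**
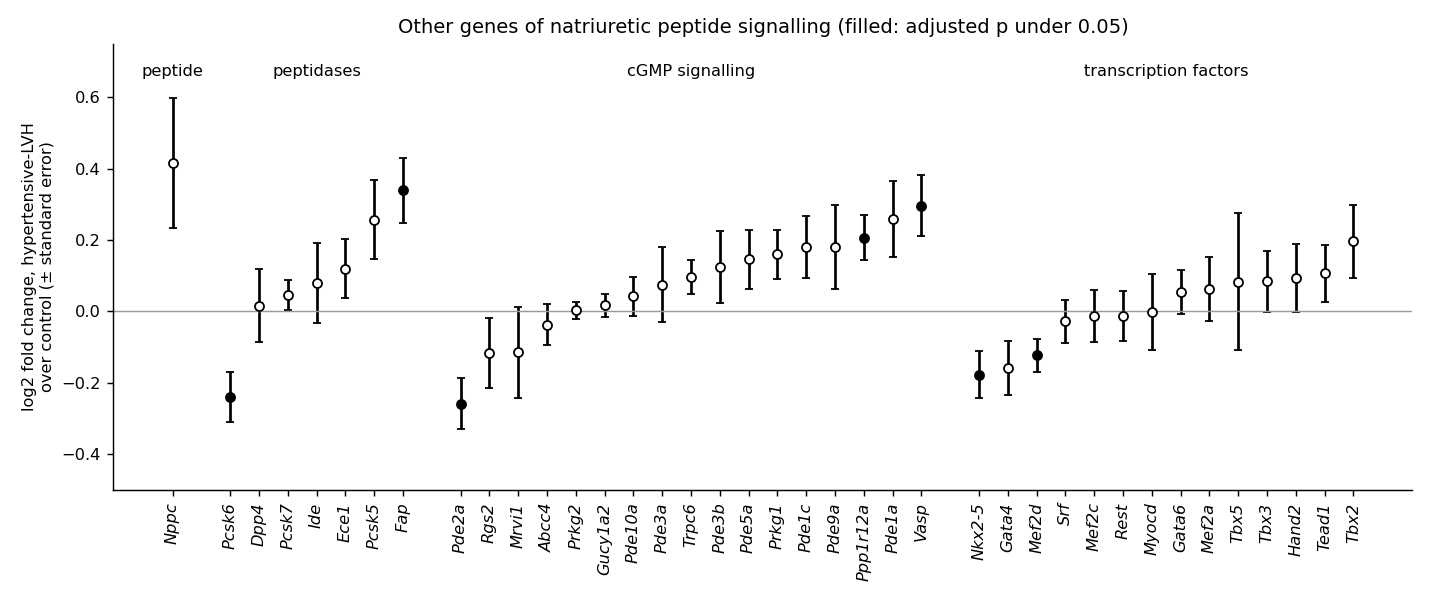
Log2 fold change (hypertensive-LVH over control) with standard error of the 39 other genes of natriuretic peptide signalling tested, grouped by role and sorted by value; filled points have an adjusted p under 0.05. Filled are Fap, Vasp and Ppp1r12a above 0 and Pcsk6, Pde2a, Nkx2-5 and Mef2d below it, and none passes 0.5 in size with a filled point.

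Around the peptide genes, the annotation lists 14 genes within 100 kb of the interval from Nppb to Nppa, of which 9 are protein-coding and in the table. Besides the 2 peptide genes, 6 were tested and 1 was called. Mfn2, which encodes a mitochondrial fusion protein, fell from 300.5 to 248 FPKM (log2 fold change -0.28 ± 0.05, limma, adjusted p = 1.84e-04). Plod1 had a log2 fold change of 0.11 (adjusted p = 0.109), Clcn6 of 0.07 (0.209), Agtrap of 0.03 (0.616) and 2510039O18Rik of -0.02 (0.707). Draxin, at a mean of 0.0547 FPKM, was below the filter.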

How the data were processed

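RNA-seq of 24 mouse left ventricles (12 after ANG II, 12 after saline) was used. Per the labels and the methods, mRNA was selected with oligo(dT), and the submitters' processing notes name HISAT, Bowtie2 and RSEM, without versions. The genome build was not given in the sources used here. The authors deposited 1 table with values in FPKM. From negative values, and from ties shared only by samples of 1 set, an adjustment in 4 sets of 3 and 3 samples was inferred, which no source used here states. The 278 genes with whole hundredths in every sample were left out when ties were counted. 0 sample columns were left out. Read depth is unknown, so no counting error can be given, and the number of samples limits the precision. The methods call the samples biological replicates, those analysed here are part of larger groups in the study, and whether each was 1 mouse was not given in the sources used here.

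The members and all lists were chosen with earlier results of these data known. Values under 0 were set to 0, log2(FPKM + 1) was taken and the 14026 genes whose mean reached 0.1 were tested with limma 3.58.1 in R 4.3.3 (intensity trend, Benjamini-Hochberg). The step was tested on simulated data. A fold change on this scale understates low genes. For values before the adjustment, the factor applied to a gene within a set was found from the spacing of its values, which are multiples of 0.01 FPKM beforehand, with 1 group difference common to the sets. Of the genes tested, 12575 had 1 solution and 961, Nppa among them, had several of which the best was over 10 times closer than the next. These 13536 genes (96.5%) were tested by exact permutation of labels within the sets (160000 relabelings, two-sided). Tests on deposited values, whether by limma, the Wilcoxon test or permutation, ignore that the inferred adjustment itself knew the groups. Their p-values may therefore be too small. Named genes were the 8 members, the 5 most like Nppa and Nppb and the 3 most like each other member by rho, genes within 100 kb of the peptide genes, atrial and conduction markers, and in pathway lists the largest changes in each direction; Ppp1r12a, Mef2d, Prkg1, Pde5a, Gata4 and Tbx5 were chosen after their values were seen. A few genes that this rule names are not reported here. Gene positions came from GENCODE vM21, which holds 99.8% of the symbols, and promoters of all 8 members are in the RefSeq table. Alternatives were another pseudocount, filter, scaling and test, terms for the set or the replicate number, and leaving out sets or samples. Whether replicate numbers pair the samples cannot be read from the adjusted values.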

Additional observations from a re-analysis of the deposited data

How the results depend on the processing

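Of 44 alternatives per member, the call of Nppa was lost only with values before the adjustment over all 24 samples, and that of Furin with samples 7 to 9 left out, with samples 7 to 12 only and with values before the adjustment, whichever samples entered. The number of members called was 2 in the reported fit, 1 without samples 7 to 9, 1 in samples 7 to 12, 0 with values before the adjustment and 1 with those values in samples 7 to 12; the cause was not tested. It was 3 with quantile normalization, with median-ratio scaling, with the Wilcoxon test, and before the adjustment when control sample 2, or it and ANG II sample 6, were left out. Leaving out 1 sample gave 2 members called, and 3 without control sample 11. The number of all genes called also changed. Of 14026 genes, 4697 were called in the reported fit, 3798 without samples 7 to 9, 4852 with quantile normalization and 4632 with median-ratio scaling. The Wilcoxon test called 4125. Of 13536 genes before the adjustment, 3743 were called, 1626 in samples 7 to 12, 4698 without control sample 2 and 4061 also without ANG II sample 6. The member counts cannot be read apart from these. The direction turned for members that were not called. Npr1 had -0.067 without samples 4 to 6, -0.046 in samples 7 to 12 and -0.628 FPKM before the adjustment in samples 7 to 12, and Npr2 had -0.0016 in samples 7 to 12. Npr3 had -0.094 with quantile normalization, -0.028 with median-ratio scaling, -0.11 without samples 4 to 6, -0.10 in samples 7 to 12, -0.290 FPKM on the linear scale, -0.723 FPKM before the adjustment and -0.482 FPKM before it in samples 7 to 12, and -0.087 to 0.15 when 1 sample was left out.

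Pathway genes called numbered 7 in the reported fit, 4 without samples 4 to 6 (20.0% of all genes were called) and 4 in samples 7 to 12 (13% of all genes). Same-numbered samples correlated at -0.557 to -0.0011 in their deviations. The inferred adjustment acts on both groups of a set and can alter such coefficients, so they cannot show whether the samples were paired. With the replicate block 4 pathway genes and 2 members were called (20.1% of all genes).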
